A study of Xenopus laevis with 14 samples.

Results

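*Xenopus laevis* is an allotetraploid frog: its genome joins those of a pair of ancestral species, and many genes are therefore present as homeologs, an L copy on the longer set of chromosomes and an S copy on the shorter set. The S subgenome has lost more genes and rearranged more since the merger, and where both copies remain, L copies have on average been found more abundant in adult tissues, although the favoured copy differs between genes. Homeologs that are both kept can share the original expression, divide it between tissues, or leave most of it to a single copy. The question asked here was which copy of each gene yielded more read pairs in the brains of control tadpoles. Rows of the count table whose names differ only in the ending .L or .S were taken as a pair, and a pair was kept if its copies together had at least 50 counts in every control library. Of 10192 such pairs, 8723 were kept and 1469 were under the minimum, of which 73 had no count in any control. At the limit, *adra1b*, *hoxa5*, *prdm1* and *spib* were kept with 50 counts in their lowest control, and *hhex*, *hoxc5*, *mmp11* and *spi1* were left out with 49. The whole table has 26807 rows, of which 5178 are L genes without an S partner and 1242 are S genes without an L partner.

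The study compared whole brains of stage 47 tadpoles in 14 libraries, each from 6 pooled brains, with embryos from 2 females. The 5 control libraries came from tadpoles injected as embryos with Cas9 and an untargeted, scrambled guide, and they are labelled unedited and wild type. Beside them stand 4 libraries of *ap3b2* CRISPants, with Cas9 and a guide designed on *ap3b2.S*, and 5 libraries of *eef1a2* CRISPants, with Cas9 and a guide against *eef1a2*. *ap3b2* encodes the neuronal beta subunit of the AP-3 vesicle adaptor and *eef1a2* the neuronal and muscle form of the elongation factor that brings tRNAs to the ribosome. Both CRISPants are F0 mosaics, in which edited and unedited cells are mixed and single brains of a pool cannot be separated. The labels do not say whether pools of a group came from separate spawnings, so p-values measure the spread between these pools.

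Between 39647384 and 46745977 read pairs were counted per control library, and 87.1 to 87.4% of them lay on the 8723 pairs. Summed over the marker rows, neuronal genes stood at 5160 to 5840 CPM in the controls (counts scaled to the TMM-adjusted library total) and neural progenitor genes at 2030 to 2420 CPM, with no marker row of either list at 0. Endothelial markers summed to 29.9 to 38.7 CPM, microglial and leukocyte markers to 2.71 to 3.54 CPM and erythroid markers to 366 to 480 CPM. Cartilage markers summed to 131 to 147 CPM, skeletal muscle markers to 9.85 to 19.3 CPM and epidermal markers to 3.85 to 7.42 CPM. Whether these reads came from tissue carried over with the brains was not tested. No control library repeated another, and CRISPant libraries were not compared in this way. Control 4 stood apart: its mean chi-square per gene against the other controls was 20.6 to 40.8, compared with 5.49 to 17.8 among the others.

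The L copy was the more abundant on balance, and the balance was steady between control libraries. L copies held 53.69%, 53.70%, 53.76%, 53.68% and 53.66% of the pair counts in controls 1 to 5. The median log2 ratio of L to S counts over all pairs was 0.3212, 0.3031, 0.3132, 0.3073 and 0.2998 in the same libraries, and 61.73 to 62.25% of the pairs had more L than S counts. In the CRISPants the median lay between 0.3017 and 0.3206, inside the span of the control values. The other measures were partly or wholly lower there. L copies held 53.47 to 53.72% of the pair counts in CRISPant libraries. The share of pairs with more L than S counts was 60.13 to 61.44%, below every control. What sets this share apart was not tested. Counts were not divided by transcript length, because exon lengths were not used here, so each ratio is of read pairs per gene and not of RNA molecules.

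A pair was called toward a copy if that copy was over 2-fold more abundant within the same libraries at a false discovery rate (FDR) below 0.05, with edgeR's quasi-likelihood test and Benjamini-Hochberg adjustment over the 8723 pairs. By this measure 2391 pairs (27.4%) were called toward L and 1117 (12.8%) toward S, together 3508 (40.2%), while 5215 pairs were not called. In 4875 pairs (55.9%) the L copy, and in 2782 (31.9%) the S copy, had more counts in all 5 controls. Without the fold limit, 4915 pairs (56.3%) were called toward L and 2841 (32.6%) toward S. At a fold above 4 the numbers were 1044 (12.0%) toward L and 458 (5.25%) toward S. Of all calls 68.2% were toward L. Where L and S columns were instead scaled as separate libraries, which moves the median of all pairs by -0.299 on the log2 scale, to 0.01, 54.4% of the calls were toward L, with 1837 pairs toward L and 1538 toward S. Calls and medians given below for gene lists are measured from equal counts of both copies, a log2 ratio of 0. They are therefore to be read beside the shared median of 0.31 and the shares called over all pairs. Those shares also differ with abundance, from 38.1% and 17.8% in the least abundant pairs to 17.9% and 8.94% in the most abundant. The lists were not matched for it. For several lists the values under the separate scaling are given as well. This scaling centres the ratios near 0 by its design, so it is no test of the lean to L. It moves the median of each list by about the same amount as that of all pairs. A median that changes sign there, or a list whose calls turn to S, is therefore no separate result. Without control 4 the numbers were 2371 and 1115.

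**Figure D1:**
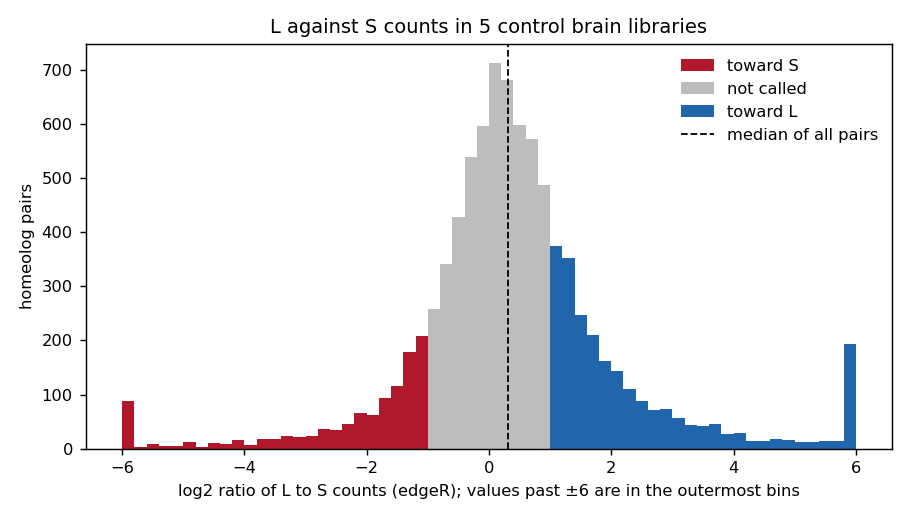
Number of homeolog pairs (vertical axis) by log2 ratio of L to S counts in the 5 controls (horizontal axis, edgeR), coloured by call, with values past 6 in either direction gathered in the outermost bins. The peak lies just right of 0, the dashed line marks the median of 0.31, and the blue tail of 2391 pairs toward L is larger than the red tail of 1117 pairs toward S.

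The most one-sided pairs with at least 10 counts of each copy in every control had almost all of their counts on a single copy. Toward L these were led by *cfh*, for complement factor H, an inhibitor of the complement cascade, *ccdc50*, *hmga2*, for a chromatin protein of progenitor cells, and *inpp5d*, for the inositol phosphatase SHIP1 of blood cells and microglia. Toward S they were led by *syt1*, for the calcium sensor of synaptic vesicle release, *scrt2*, for a neuronal zinc finger repressor, *sppl2b*, for an intramembrane protease, and *bloc1s1*, for a subunit of the BLOC-1 complex of lysosome-related organelles. The folds were 277 for *cfh*, 276 for *ccdc50*, 233 for *hmga2* and 213 for *inpp5d* toward L. They were 232 for *syt1*, 227 for *scrt2*, 114 for *sppl2b* and 107 for *bloc1s1* toward S. These pairs were chosen for their size, and the folds describe them.

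*syt1.S* stood at 313, 321, 308, 263 and 293 CPM in controls 1 to 5, and *syt1.L* at 1.28, 1.66, 1.79, 0.928 and 0.822 CPM. The copies were thus apart by more than 2 orders of magnitude in every library, and L held 0.427% ± 0.121 (SD, n = 5) of the counts (log2 ratio -7.86 ± 0.097 SE, FDR 6.08e-13 with edgeR). Here and below, SE is the size of the log2 ratio or change divided by the square root of the test's F value. It is not the SE of the mean of the library ratios. *syt1.L* lies on chromosome 4L, from 16744720 to 16761602 of assembly v10.1, a span of 16883 bases. *syt1.S* was not placed in the gene table used. *scrt2.S* stood at 80.2, 71.9, 84.8, 84.6 and 87.2 CPM and its L copy at 0.281 to 0.416 CPM.

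*ccdc50.L* stood at 393, 405, 285, 365 and 371 CPM and *ccdc50.S* at 1.09, 1.37, 1.33, 1.16 and 1.6 CPM. Both copies are annotated over similar spans, 35506 bases of chromosome 5L and 34679 bases of chromosome 5S. *hmga2* was as uneven, with the L copy at 82.6 to 101 CPM and the S copy at 0.295 to 0.527 CPM, and its copies span 55356 bases of chromosome 3L and 56133 bases of chromosome 3S. For *cfh* the L copy varied more, at 164, 150, 140, 216 and 255 CPM, while *cfh.S* stayed between 0.443 and 0.929 CPM. Controls 4 and 5 were the highest for *cfh.L* and the lowest for *cfh.S*.

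The next pairs toward L were *tbcd*, for a cofactor of tubulin folding (132-fold), *pdcl3*, for a phosducin-like co-chaperone (91.0-fold), *dnajb2*, for a neuronal co-chaperone (91.0-fold), and *ola1*, for an Obg-like ATPase (84.7-fold). Toward S they were *ints13*, for a subunit of the Integrator complex (96.1-fold), *phyh*, for the peroxisomal enzyme of phytanic acid breakdown (94.6-fold), *lrrc59*, for a ribosome-associated protein of the endoplasmic reticulum (73.4-fold), and *mpc2*, for a subunit of the mitochondrial pyruvate carrier (67.9-fold). These 16 leading pairs were chosen for their size, so it follows from the choice that their copies stood apart in every control. Among all pairs, the same copy was ahead in all 5 controls in 55.9% toward L and 31.9% toward S. The lesser copies of *cfh*, *tbcd*, *dnajb2*, *scrt2*, *bloc1s1*, *ints13* and *mpc2* were not found in the gene table used. Whether their gene models bear on the folds was not tested. Over the whole set, L held at least 95% of the counts in 308 pairs and at most 5% in 147 pairs.

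In 34 pairs the S copy had no count in any control, and in 11 pairs the L copy had none. *carmil3*, for a regulator of actin capping, had 35948 counts on the L copy and 0 on the S copy over the 5 controls, so that L was at least 12000-fold higher against a floor of 3 counts over the group. *vps50*, for a subunit of the EARP tethering complex of endosomes, was at least 6490-fold higher on L, *phc2*, for a Polycomb protein, at least 5040-fold, and *cnnm3*, for a magnesium transport protein, at least 4640-fold. The opposite extreme was *elovl4*, for an elongase of very long chain fatty acids. *elovl4.S* stood at 320, 336, 320, 323 and 304 CPM while *elovl4.L* had 0 counts, and S was at least 24500-fold higher. *ccdc126*, *dhrs11*, for a short-chain dehydrogenase, and *cops9*, for a subunit of the COP9 signalosome, were at least 1900-fold, 1850-fold and 1720-fold higher on S. The copy at 0 was not found in the gene table used for *vps50*, *phc2*, *cnnm3*, *elovl4* and *ccdc126*. For *carmil3* neither copy was found there. A copy at 0 was detected in some CRISPant libraries: *phc2.S* had 1 count in each of 4 *eef1a2* CRISPant libraries and 2 counts in *ap3b2* CRISPant replicate 4, and *carmil3.S* had 1 count in each of 2 *eef1a2* CRISPant libraries. How read pairs that fit both copies were treated is not given in the sources used here, and near-identical copies and shortened gene models were not tested as a part of these ratios.

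The abundant pairs were less one-sided. The largest pair of all, *eef1a1*, for the ubiquitous elongation factor, had 46.0%, 45.8%, 46.8%, 47.2% and 47.3% of its counts on L. All 5 values lie below an equal share, yet the copies differed by only 1.15-fold and were not called. The same held for *eef2*, for the translocase of the ribosome (1.23-fold toward L), *actb* (1.45-fold toward L) and *cirbp*, for the cold-inducible RNA-binding protein (1.34-fold toward S). The copies of *actg1*, for gamma actin, were the closest among these, with 49.5% ± 0.523 of counts on L (SD, n = 5) and an FDR of 0.0819 with edgeR.

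Among the most abundant pairs that were called, those toward L included ribosomal and mitochondrial genes. *rpl3.L*, for a protein of the large ribosomal subunit, stood at 1610, 1570, 1680, 1890 and 1610 CPM and *rpl3.S* at 133, 138, 172, 223 and 196 CPM. The L copy was 9.86-fold higher (log2 ratio 3.30 ± 0.0783 SE, FDR 3.42e-11). *slc25a5*, for the ADP/ATP carrier of the inner mitochondrial membrane, held 85.3% ± 0.48 of its counts on L, *eef1g*, for a subunit of the elongation factor 1 complex, 78.4% ± 0.749, and *rpl10* 69.1% ± 0.451 (SD, n = 5). *rplp0*, for the stalk protein of the ribosome, held 85.4% on average but was uneven between libraries, as described below.

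Toward S, the abundant pairs included cytoskeletal, chaperone and chromatin genes. *kdm6b.S*, for a demethylase that removes the H3K27 mark, stood at 2610, 2220, 2260, 1470 and 2380 CPM and *kdm6b.L* at 436, 413, 377, 291 and 483 CPM. Both copies were lowest in control 4, and L held 14.3 to 16.9% of the counts in every control. *hsp90ab1*, for the constitutive cytosolic Hsp90, held 24.0% ± 1.93 of its counts on L, and *jarid2*, for a partner of Polycomb repressive complex 2, held 24.9% ± 3.89 with a range of 18.7 to 29.1%. *tubb2b* and *tubb4a*, for neuronal beta tubulins, were 6.35-fold and 3.09-fold higher on S. *fth1*, for the ferritin heavy chain, was 3.13-fold higher on S, with L shares of 23.5 to 24.9%.

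**Figure D2:**
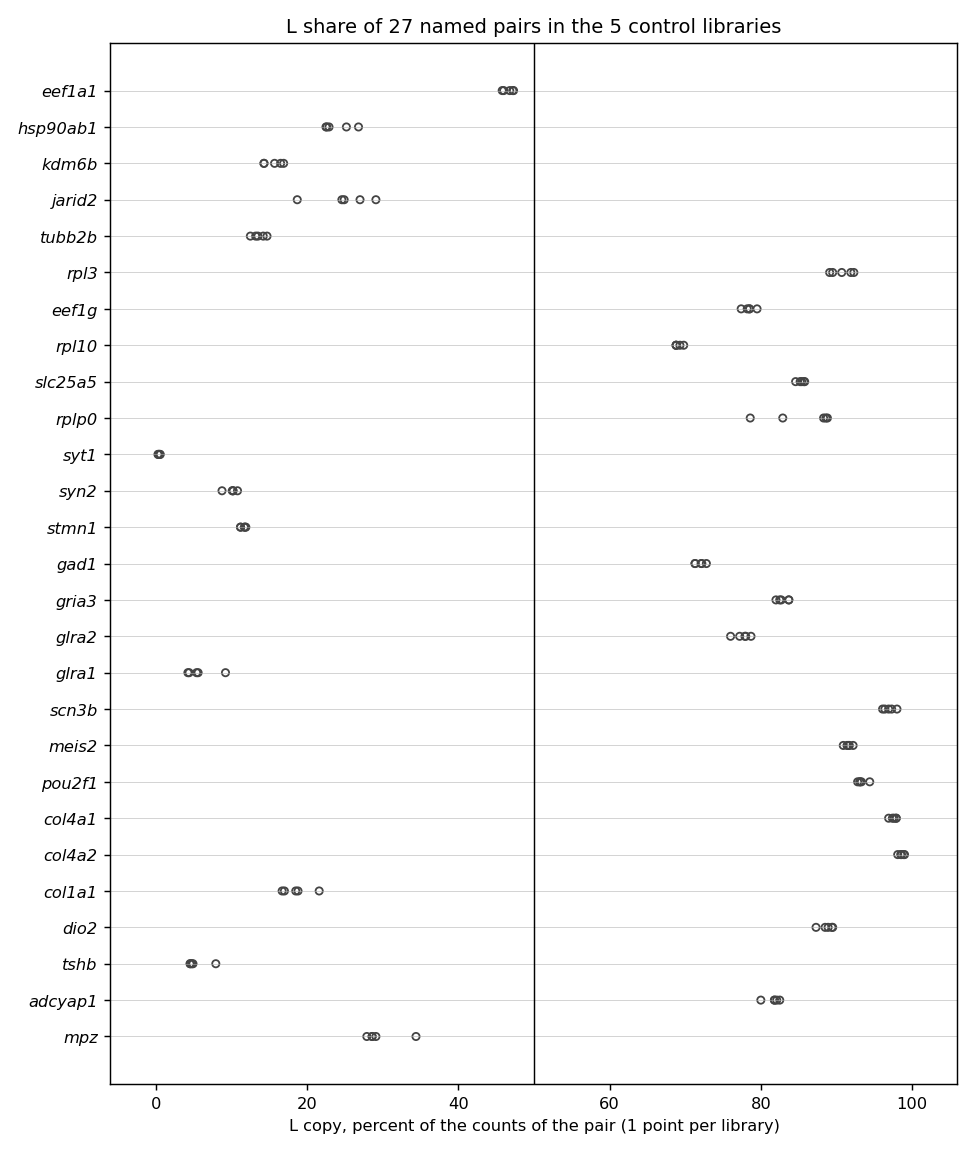
Percent of a pair's counts on the L copy (horizontal axis) for 27 named pairs, with 1 point for each of the 5 controls and a vertical line at an equal share. Points of a pair mostly fall within a few percent of each other, from *syt1* near 0 to *col4a2* at 98.1 to 99.0%, while *rplp0* and *jarid2* spread the most.

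Lists of the basic cellular machinery differed among themselves in how often a copy was called. Of 74 pairs of cytosolic ribosomal proteins 5 were called toward L and 4 toward S, that is 6.76% and 5.41% compared with 27.4% and 12.8% of all pairs, and their median log2 ratio was 0.07. Proteasome subunits (32 pairs) had 4 calls toward L and 0 toward S, with a median of 0.09. Splicing factors (61 pairs) had 6 toward L (9.84%) and 8 toward S (13.1%), with a median of 0.03. These medians lie below that of all pairs. With L and S scaled apart they were -0.23, -0.21 and -0.27, moved by the shift that all lists share. Translation initiation factors (37 pairs) had 6 calls toward L (16.2%) and 10 toward S (27%), with a median of 0.07. DNA repair genes (17 pairs) had 6 toward L (35.3%) and 2 toward S (11.8%). Their median of -0.02 differs in sign from most of their calls. Among the called members of the ribosomal, proteasome and splicing lists, *rps19*, for a protein of the small ribosomal subunit, was 5.77-fold higher on S. *psmc4*, for an ATPase of the proteasome cap, was 10.5-fold higher on L, with L shares of 90.6 to 92.0%. *sf3a1*, for a subunit of the U2 snRNP, was 28.4-fold higher on L, with L at 113 to 133 CPM and S at 3.00 to 6.19 CPM, whereas *srsf3*, for an SR splicing factor, was 4.00-fold higher on S.

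Energy and translation enzymes included lists with more S than L calls. Of 14 aminoacyl-tRNA synthetase pairs 1 (7.14%) was called toward L and 5 (35.7%) toward S (median log2 ratio -0.15). Of 23 mitochondrial ribosomal protein pairs 5 (21.7%) were called toward L and 7 (30.4%) toward S (median -0.12). With single controls left out, calls toward L among the synthetases numbered 0 without control 5, 1 without control 1 and 2 without control 2, 3 or 4. *qars1*, the glutaminyl-tRNA synthetase gene, was 4.05-fold and *nars2*, for the mitochondrial asparaginyl-tRNA synthetase, 4.51-fold higher on S. Subunits of oxidative phosphorylation (59 pairs) were divided, with 12 (20.3%) called in each direction. *atp5f1b*, for the catalytic beta subunit of ATP synthase, stood at 749, 736, 798, 954 and 851 CPM on S and at 102, 104, 113, 135 and 108 CPM on L. Its S copy was 7.28-fold higher, whereas *ndufs1*, for a subunit of complex I, was 4.37-fold higher on L. Glycolysis (18 pairs) had 5 calls toward L (27.8%) and 3 toward S (16.7%), near the 27.4% and 12.8% of all pairs. Its members included both lactate dehydrogenase genes, *ldhb* 5.61-fold and *ldha* 3.37-fold toward S, and *pgk1*, for phosphoglycerate kinase, 2.57-fold toward L.

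Cytoskeletal genes of neurons had more calls toward S than toward L. Of 34 pairs of tubulins and neuronal cytoskeletal proteins 2 were called toward L and 8 toward S, 5.88% and 23.5%, with a median of -0.11. *stmn1*, for the microtubule-destabilising protein stathmin, stood at 294, 307, 316, 359 and 300 CPM on S and at 39.7, 38.7, 39.9, 47.8 and 40.4 CPM on L. The L share was therefore 11.2 to 11.9% in every control. *tubg1*, for gamma tubulin of the microtubule organising centre, was 18.4-fold higher on S, and *map1a*, for a microtubule-associated protein of neurons, 2.44-fold higher on L. Motors were divided, with 8 of 37 kinesin and dynein pairs toward L (21.6%) and 10 toward S (27%). *dync1h1*, for the heavy chain of cytoplasmic dynein, was 11.9-fold higher on L, at 727 to 965 CPM compared with 48.6 to 88.9 CPM, and *kif3a*, for a motor subunit of kinesin-2, was 4.67-fold higher on S.

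Synaptic lists had few calls toward S apart from a small number of large ones. Of 63 synaptic vesicle and exocytosis pairs 17 (27%) were called toward L and 4 (6.35%) toward S, compared with 27.4% and 12.8% of all pairs. The median log2 ratio of the list was 0.25, which turned to -0.05 where L and S were scaled apart. The S calls include *syt1*, described above, and *syn2*, for synapsin II, which tethers vesicles. *syn2.S* stood at 307, 333, 325, 322 and 316 CPM and *syn2.L* at 34.7, 37.4, 39.3, 30.9 and 35.9 CPM, a 9.01-fold difference. *snap29*, for a SNARE protein of membrane fusion, was 11.9-fold higher on L. Synaptic adhesion molecules (45 pairs) had 8 calls toward L (17.8%) and 2 toward S (4.44%), with a median of 0.43. Both shares were below those of all pairs. Semaphorins, plexins and neuropilins, which guide axons (27 pairs), had 4 (14.8%) and 0, with a median of 0.48. Vesicle adaptors and clathrin (26 pairs), the list that holds *ap3b2*, had 7 (26.9%) and 0, with a median of 0.33.

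GABA and ionotropic glutamate receptors had 0 calls toward S, compared with 12.8% of all pairs, but these lists are small. Their shares toward L were near the 27.4% of all pairs. Of 9 GABA receptor pairs 2 (22.2%) were called toward L, *gabra5* at 2.72-fold and *gabrb2* at 2.63-fold, while the median of the list was -0.01 and so differs in sign from its calls. *gad1*, for the enzyme that makes GABA, had L at 757, 748, 816, 666 and 732 CPM and S at 305, 301, 315, 249 and 281 CPM. L held 71.3 to 72.8% in every library. Of 17 ionotropic glutamate receptor pairs 4 (23.5%) were called toward L. *gria3*, for an AMPA receptor subunit, was 4.86-fold higher on L. Glycine receptor genes went opposite ways: *glra1.S* was 16.6-fold higher than *glra1.L*, and *glra2.L* was 3.46-fold higher than *glra2.S*. The shares did not come near each other, at 4.24 to 9.21% on L for *glra1* and 76.0 to 78.7% for *glra2*.

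Calcium and potassium channels were called toward L at shares near that of all pairs. Of only 7 voltage-gated sodium channel pairs 3 (42.9%) were called toward L and 0 toward S. Those toward L included *scn3b* (31.8-fold) and *scn4b* (2.97-fold), for accessory beta subunits. *scn3b.L* stood at 53.4, 54.6, 59.2, 51.4 and 49.1 CPM and *scn3b.S* at 1.98, 2.23, 1.67, 1.03 and 1.58 CPM. Calcium channels (22 pairs) had 7 calls toward L (31.8%) and 2 toward S (9.09%), and potassium channels (69 pairs) 18 and 10, or 26.1% and 14.5%. Solute carriers other than the mitochondrial slc25 family (151 pairs) had 57 toward L (37.7%) and 23 toward S (15.2%), with a median of 0.49. The betaine and GABA transporter gene *slc6a12* was 19.8-fold higher on L, at 299 to 399 CPM compared with 12.7 to 23.8 CPM, and the S copy was highest in controls 4 and 5.

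Among lists of brain patterning, homeobox genes had more calls toward L than toward S, and Hox genes as many in each direction. Of 81 pairs of homeobox and other transcription factors of brain regions 29 (35.8%) were called toward L and 2 (2.47%) toward S, with a median of 0.78, and 63 of the 81 ratios were positive. With L and S scaled apart there were 22 calls toward L and 5 toward S, and the median was 0.48. *meis2*, for a TALE homeobox factor, stood at 400, 400, 368, 436 and 421 CPM on L and at 33.8, 36.2, 33.9, 43.8 and 39.5 CPM on S. That is a 10.8-fold difference, and *emx1*, a marker of the dorsal forebrain, and *pou2f1*, for the octamer-binding factor Oct-1, were 11.7-fold and 14-fold higher on L. The calls toward S are *en2*, of the midbrain-hindbrain boundary, at 2.75-fold, and *lhx1*, for a LIM homeobox factor, at 2.07-fold. Basic helix-loop-helix and Sox factors (46 pairs) had 11 calls toward L (23.9%) and 2 toward S (4.35%). Their median was 0.08, which became -0.22 under the separate scaling. Of 36 Hox pairs, the count minimum was passed by 11. Of these 2 (18.2%) were called in each direction, among them *hoxb3*, 6.77-fold toward S, and *hoxd4*, 2.45-fold toward L. Without control 4 the Hox calls toward L numbered 4.

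Chromatin modifiers (67 pairs) had 14 calls toward L (20.9%) and 2 toward S (2.99%), with a median of 0.19. Both shares and the median were below those of all pairs (27.4%, 12.8% and 0.31). Under the separate scaling 9 were called in each direction and the median was -0.11. Of the summed counts of the list 44.06% were on L, and the list holds the abundant pair *kdm6b*, with 15.5% of its counts on L. TGF-beta and BMP signalling genes (42 pairs) had 17 toward L (40.5%) and 5 toward S (11.9%), with a median of 0.58. Among ligands and inhibitors *bmp7* was 7.79-fold and *fst*, for the activin antagonist follistatin, 5.30-fold higher on L. Among receptors *acvr2b*, for an activin type II receptor, was 3.62-fold higher on S.

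Extracellular matrix genes leaned to L, with a single call the other way. Of 47 pairs of collagens, laminins and integrins 23 (48.9%) were called toward L and 1 (2.13%) toward S, and the median was 0.91, or 0.61 with L and S scaled apart. *col4a1* and *col4a2* encode the chains of the common type IV collagen of basement membranes and lie side by side, from 121973903 to 122067473 and from 121854871 to 121973598 of chromosome 2L. *col4a1.L* stood at 37.9, 38.2, 29.8, 34.2 and 34.3 CPM and *col4a1.S* at 1.01, 0.807, 0.717, 0.738 and 1.10 CPM. *col4a2.L* stood at 29.5, 27.6, 22.9, 24.2 and 28.4 CPM and *col4a2.S* at 0.421, 0.318, 0.232, 0.358 and 0.563 CPM. The neighbours thus shared both level and lean, 39.7-fold and 69.7-fold toward L. *lama4*, for a laminin chain of vessels, was 32.9-fold higher on L, and the single call toward S was *col1a1*, for fibrillar collagen I, at 4.42-fold.

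**Figure D3:**
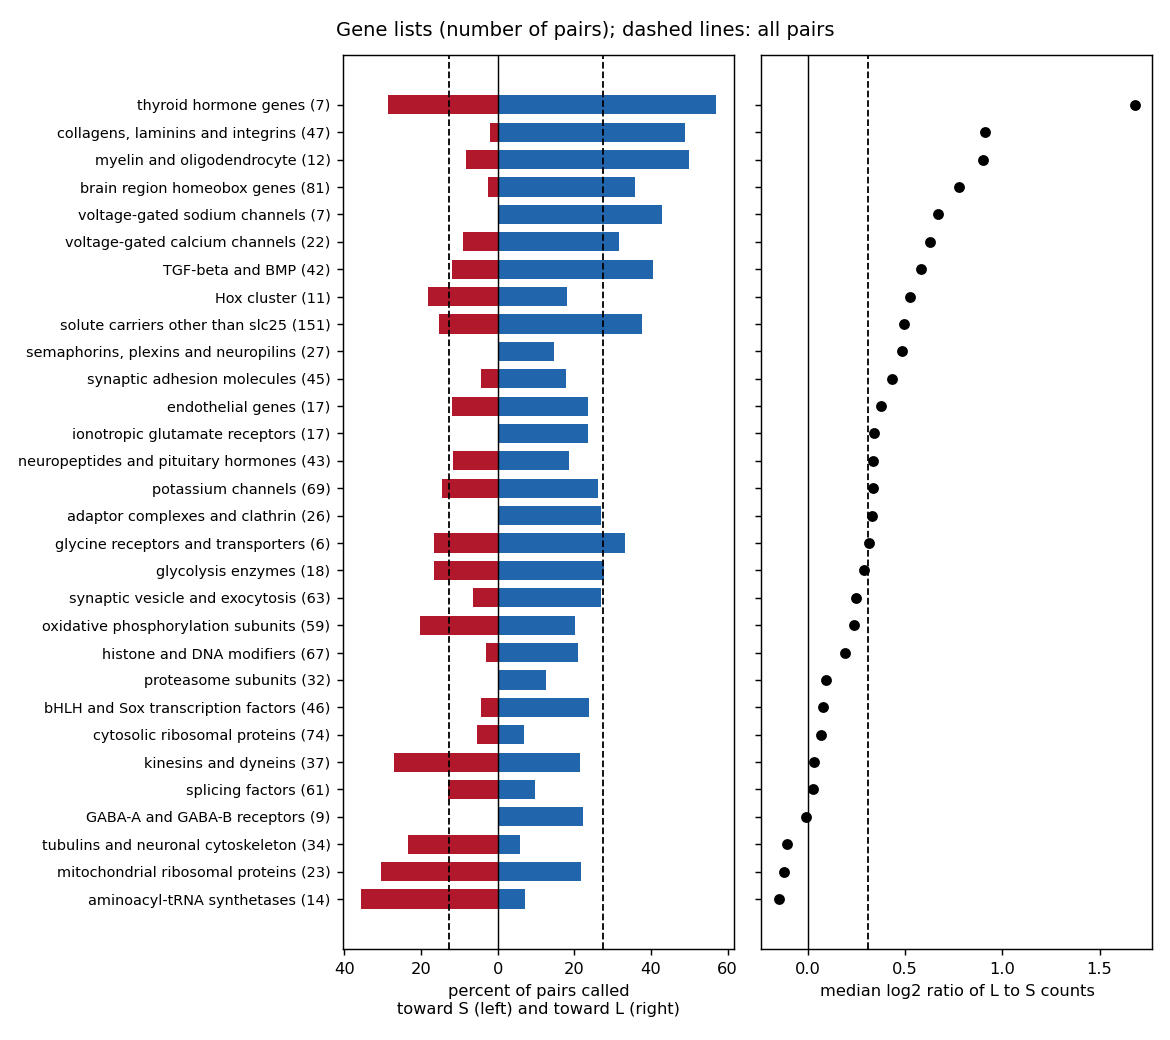
Percent of pairs called toward L (blue, right) and toward S (red, left) in 30 gene lists, and the median log2 ratio of each list (black points), with the number of pairs in brackets and dashed lines for all pairs (27.4%, 12.8% and 0.31). Collagens, laminins and integrins, the brain region homeobox genes and the small thyroid hormone and myelin lists lie far to the L side. Ribosomal, proteasome and splicing genes lie near 0, and the synthetases, mitochondrial ribosomal and tubulin lists lie below 0.

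Cell type and hormone lists are small and were mixed. In bulk brain, fewer cells of a type and less RNA per cell cannot be told apart, but both copies of a pair are read in the same RNA. Of 12 myelin and oligodendrocyte pairs 6 (50%) were called toward L and 1 (8.33%) toward S, with a median of 0.9. *olig1*, for an oligodendrocyte lineage factor, was 8.99-fold higher on L, and *mpz*, for myelin protein zero, was 2.37-fold higher on S. Of 17 endothelial pairs 4 (23.5%) were called toward L and 2 (11.8%) toward S, near the 27.4% and 12.8% of all pairs. *kdrl*, for a VEGF receptor, was 12-fold and *cldn5*, for the tight junction protein of the blood-brain barrier, 2.57-fold higher on L, and *mfsd2a*, for the lipid transporter of that barrier, 2.57-fold higher on S. With L and S scaled apart, calls toward S outnumbered those toward L in lists where they had not. Among them were endothelial genes (3 toward L and 4 toward S), potassium channels (12 and 14), ionotropic glutamate receptors (1 and 2) and glycine genes (1 and 2). So were Hox genes (0 and 3), cadherins and protocadherins (3 and 5) and chaperones (6 and 11). The same held for replication and mitosis genes (10 and 13), cytosolic ribosomal proteins (3 and 5) and oxidative phosphorylation (8 and 17). These turns go with the shift that all lists share and are no separate result.

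Thyroid hormone drives metamorphosis, and of its 7 pairs 6 were called, 4 toward L (57.1%) and 2 toward S (28.6%). The median log2 ratio of this list was 1.68. *dio2*, for the deiodinase that makes the active hormone, stood at 52.5, 50.8, 46.2, 39.8 and 41.8 CPM on L and at 6.16, 6.31, 5.51, 5.78 and 5.43 CPM on S. *thrb*, for a hormone receptor, was 2.25-fold higher on S, but on few reads, with 139 counts on L and 315 on S over the 5 controls. Of 43 neuropeptide and pituitary hormone pairs 8 (18.6%) were called toward L and 5 (11.6%) toward S, compared with 27.4% and 12.8% of all pairs. *tshb*, for the pituitary hormone that stimulates the thyroid, was 17.8-fold higher on S and *crh*, for corticotropin-releasing hormone, 3.75-fold higher on S. *adcyap1*, for the peptide PACAP, was 4.45-fold higher on L, at 254 to 286 CPM compared with 57.5 to 63.5 CPM.

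The targeted genes themselves differed in balance. *ap3b2* held 63.2%, 62.6%, 65.0%, 63.2% and 61.0% of its counts on L in the controls, 123 ± 6.08 CPM for L and 72.2 ± 1.80 CPM for S (SD, n = 5), which is 1.70-fold and below the fold limit. *eef1a2* held 27%, 28.3%, 28.1%, 26.3% and 26.6% on L and was called toward S at 2.67-fold, with 152 ± 8.61 CPM for L and 406 ± 27.1 CPM for S.

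The lean to L was seen on every chromosome and did not follow the annotated spans of the genes closely. These spans run from gene start to gene end and include introns, so they are no check on transcript length, which was not examined. Both copies were placed on matching chromosomes for 6602 pairs, of which 26.4% were called toward L and 11.5% toward S. The share toward L ran from 23.3% on chromosome 2 to 30.8% on chromosome 8, the share toward S from 9.01% on chromosome 8 to 14.5% on chromosome 4, and the median log2 ratio was positive on all 9 chromosomes, from 0.20 to 0.37. Over 6605 pairs with both spans, the log2 ratio of spans and the log2 ratio of counts had a Spearman rho of 0.0687 across pairs, which are not independent replicates. Among 3598 pairs whose spans differed by less than 1.2-fold, 24.4% were called toward L and 9.67% toward S. In 2118 pairs a span was missing, and 30.7% of these were called toward L and 16.9% toward S. Where both spans were known the shares were 26.4% and 11.5%. Large differences went with short partners more often: the less abundant copy had under 50% of the span of its partner in 2.39% of the pairs not called, in 8.58% of the pairs past 4-fold and in 15.1% of those past 16-fold. The reverse, a favoured copy of under 50% of the span, was found in 2.53%, 3.35% and 4.20%. The part of gene models in the extreme ratios was not tested further.

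Ratios were larger in pairs with fewer counts, in both directions. With the pairs divided by mean count into 5 groups of equal size, from the lowest to the highest, the share called toward L was 38.1%, 31.1%, 27.4%, 22.6% and 17.9%, and the share toward S 17.8%, 15.7%, 11.2%, 10.4% and 8.94%. The median log2 ratio was 0.52 in the lowest and 0.22 in the highest group. Taken without its sign, the log2 ratio had medians of 1.16, 0.897, 0.74, 0.639 and 0.557 in the same order. Calls toward L and toward S thus became fewer together. The gene lists above were set beside all pairs and not beside pairs of like abundance. Whether abundance bears on their shares was not tested.

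Ratios were steady between controls for most pairs. The SD of the log2 ratio over the 5 controls had a median of 0.142, compared with 0.0748 from counting error alone, and in 309 of 8276 pairs with at least 10 counts of each copy it was above 0.5. Replicate numbers 1 to 3 and 4 and 5 were then fitted apart, and 3265 of the 3508 calls were made the same way in both. In a single pair, *bighead*, for a secreted factor of the early embryo, the calls were opposite, at a log2 ratio of 1.46 in controls 1 to 3 and -1.14 in controls 4 and 5, with a mean of only 68.6 counts. The labels name no batch for these numbers.

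A few pairs, chosen after their values were seen, split by replicate number in all conditions. *irf5*, for an interferon regulatory factor, had L shares of 85.7%, 76.4%, 86.5%, 41.4% and 38.4% in controls 1 to 5. In the *ap3b2* CRISPants the shares were 78.4%, 89.0%, 80.6% and 37.8%, and in the *eef1a2* CRISPants 93.7%, 86.1%, 90.0%, 53.8% and 49%. Numbers 4 and 5 were thus lower in each condition, without overlap, and the call of *irf5* toward L (2.44-fold, FDR 0.0282) was lost without control 1, 2 or 3. In *irf5* it was the L copy that differed, at 7.78 to 16.5 CPM in controls 1 to 3 and 2.64 and 1.75 CPM in controls 4 and 5, while *irf5.S* stayed between 2.40 and 3.73 CPM. *gsto1*, for a glutathione transferase, was at 66.2 to 77.8% in controls 1 to 3 and at 48.3% and 56.6% in controls 4 and 5, with its S copy at 2.19 to 4.35 CPM and then 12.1 and 8.94 CPM.

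The ribosomal pairs *rplp0* and *rps19* showed the same split at high depth. *rplp0* held 88.6%, 88.8%, 88.3%, 82.9% and 78.6% on L in the controls, 80.9% in *ap3b2* CRISPant replicate 4, and 80.9% and 83.9% in *eef1a2* CRISPant replicates 4 and 5, against 87.4 to 88.7% in the CRISPant replicates numbered 1 to 3. *rps19* held 11.5 to 12.7% on L in controls 1 to 3 and 19.5% and 20.1% in controls 4 and 5, with 18.1 to 20.3% in the CRISPant replicates numbered 4 and 5. *ccdc12* went the other way, at 72.3 to 75.8% in controls 1 to 3 and 89.4% and 88.1% in controls 4 and 5, but *eef1a2* CRISPant replicate 5 was at 78.0% and replicate 2 at 79.7%, so the numbers overlap there. *retreg1*, for a receptor of endoplasmic reticulum autophagy, was higher on L in controls 4 and 5 (31.4% and 39.0%, compared with 8.17 to 14.9%), whereas in *eef1a2* CRISPants replicates 1 and 3 were as high as replicate 4. What sets these numbers apart was not tested.

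**Figure D4:**
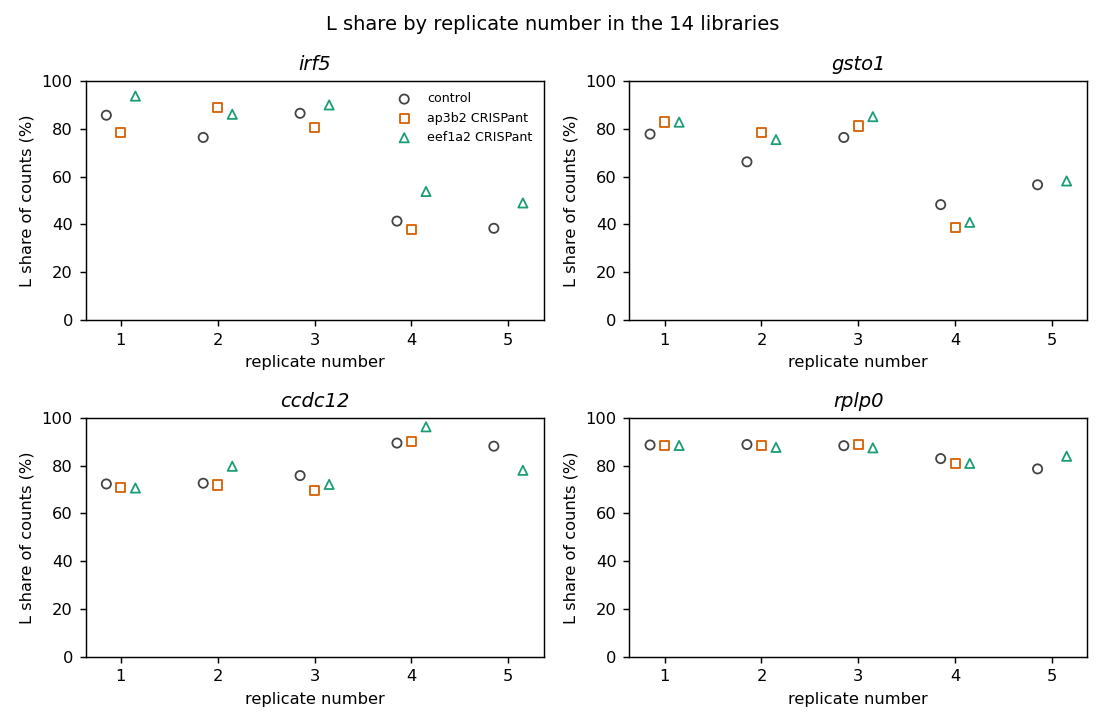
Percent of counts on the L copy (vertical axis) of *irf5*, *gsto1*, *ccdc12* and *rplp0* by replicate number (horizontal axis), with circles for controls, squares for *ap3b2* CRISPants and triangles for *eef1a2* CRISPants. Numbers 4 and 5 lie below numbers 1 to 3 in every condition for *irf5*, *gsto1* and *rplp0*, and above them for *ccdc12* except in *eef1a2* CRISPant replicate 5.

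Most pairs called in controls were called the same way in the CRISPants, whose libraries played no part in choosing the pairs. Fitted on their own, the CRISPants had more calls than the controls in both directions. They numbered 2599 toward L and 1319 toward S in the *ap3b2* CRISPants, and 2595 and 1332 in the *eef1a2* CRISPants. Of the 2391 pairs called toward L in controls, 2220 (92.8%) were called toward L in the *ap3b2* and 2221 (92.9%) in the *eef1a2* CRISPants, and of the 1117 toward S, 1026 (91.9%) and 1023 (91.6%). None of the 3508 was called the opposite way in either CRISPant. A term for copy by group was then tested with edgeR, in which both CRISPants are set against the same 5 controls. The ratio changed over 2-fold at FDR below 0.05 toward L in 126 pairs (1.44%) and toward S in 121 (1.39%) of the *ap3b2* CRISPants, and in 154 (1.77%) and 175 (2.01%) in the *eef1a2* CRISPants. At FDR below 0.05 alone the changes toward L and S numbered 1015 (11.6%) and 877 (10.1%) in *ap3b2* and 1077 (12.3%) and 926 (10.6%) in *eef1a2* CRISPants, and 3036 (34.8%) and 3125 (35.8%) pairs had an unadjusted p below 0.05. The counts of calls depend on single libraries. Without *ap3b2* CRISPant replicate 1 they fell to 63 and 53, without replicate 4 they were 282 and 272, and in the *eef1a2* CRISPants they were 265 and 249 without replicate 2 and 74 and 90 without replicate 3.

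*gprin1*, for a neurite protein that binds G proteins, was among the largest changes toward L. It held 80.0%, 79.0%, 73.5%, 85.0% and 78.5% on L in controls, 97.1%, 95.9%, 95.6% and 88.1% in *ap3b2* CRISPants and 97.1%, 89.5%, 98.7%, 92.9% and 95.8% in *eef1a2* CRISPants. All CRISPant libraries were above all controls, with log2 changes of the ratio of 2.23 ± 0.359 (SE, FDR 0.00438) and 2.43 ± 0.44 (FDR 0.00792). *gprin1.S* was at 19.5 CPM in controls and at 5.33 and 5.18 CPM in the CRISPants, and *gprin1.L* at 73.0, 97.1 and 99.4 CPM. *map1a* changed in the same way by 1.05 and 1.02 on the log2 scale, with *map1a.S* at 197 CPM in controls and 92.1 and 98.8 CPM in the CRISPants.

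Toward S, *ttc39c*, for a tetratricopeptide repeat protein, changed by -1.59 ± 0.181 (FDR 0.00344) and -1.79 ± 0.295 (FDR 0.00685), from 9.89 to 12.7% on L in controls to 3.13 to 5.94% and 1.48 to 7.03%. *kdm6b* became still more one-sided in *ap3b2* CRISPants, by -1.01 ± 0.208 (FDR 0.0076). L held 6.23 to 7.88% of its counts in replicates 1 to 3. In replicate 4 it held 14%, just below the 14.3 to 16.9% of controls. *kdm6b.S* averaged 2190 CPM in controls (1470 to 2610) and 3250 CPM in *ap3b2* CRISPants (2380 to 3900). *kdm6b.L* averaged 400 CPM (291 to 483) and 299 CPM (216 to 386), so the ranges of both copies overlapped. In *eef1a2* CRISPants the change of *kdm6b*, -0.97 (FDR 0.00893), was just under the fold limit. *prss23*, for a serine protease, changed by 2.45 and 1.83 on few reads, with 0 to 6 counts of the S copy per *ap3b2* CRISPant library.

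For the targeted pairs the changes stayed below the fold limit. *ap3b2* held 51.0%, 52.2%, 54.8% and 58.7% on L in *ap3b2* CRISPants and 49.2%, 56.9%, 45.4%, 61.0% and 55.4% in *eef1a2* CRISPants, compared with 61.0 to 65.0% in controls. The log2 ratio changed by -0.53 ± 0.0873 (FDR 0.00457) and -0.56 ± 0.143 (FDR 0.0178). *ap3b2.L* was at 123 CPM in controls and at 82.2 and 82.0 CPM in the CRISPants, and *ap3b2.S* at 72.2, 68.3 and 69.3 CPM, so the copy on which the guide was designed was the steadier. The log2 ratio of *eef1a2* differed by -0.08 (FDR 0.261) and -0.06 (FDR 0.495), neither of which passed the test, with shares of 25.1 to 28.6% over all CRISPants.

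**Figure D5:**
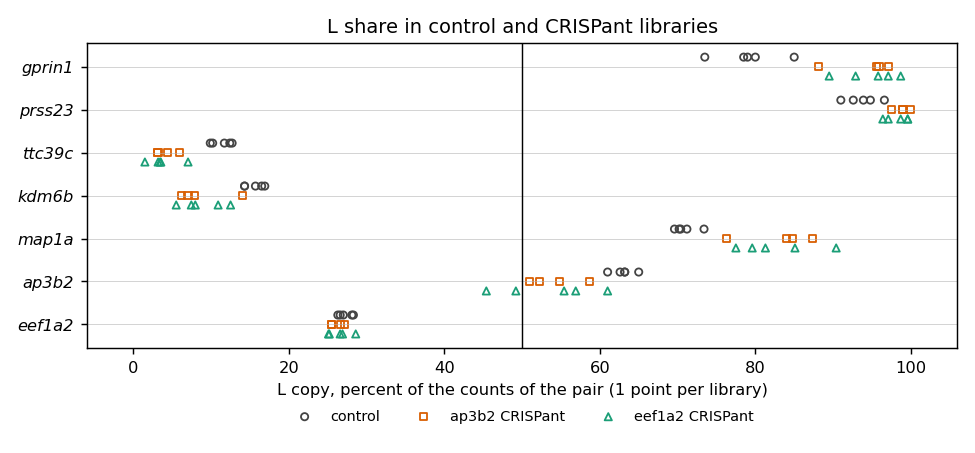
Percent of counts on the L copy (horizontal axis) of 7 pairs in controls (circles), *ap3b2* CRISPants (squares) and *eef1a2* CRISPants (triangles), 1 point per library. For *gprin1*, *ttc39c*, *kdm6b* and *map1a* the CRISPant points lie past all 5 control points, and for *eef1a2* the groups overlap. For *ap3b2* they lie below all controls except *eef1a2* CRISPant replicate 4, which is level with the lowest control at 61.0%.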

How the data were processed

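Brain RNA of 14 pools was read as stranded 2 x 100 base pairs. STAR alignments to assembly v10.1, made after trimming, were counted by gene with featureCounts, each pair once and by strand. The values the authors deposited are raw counts without normalization, and these were used as they stand. Their log2 CPM table was not used. Groups follow the labelled condition. Gene spans and chromosomes were taken from a RefSeq gene table of v10.1, in which both copies of 6605 pairs were found.

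Ratios were fitted in R 4.3.3 with edgeR 4.0.16: a row per pair, an L and an S column per library, both with the TMM-scaled total of that library, and terms for library and copy. On simulated counts for the 8723 pairs with 200 changed by 1.5 on the log2 scale, 99% were recovered and 0 unchanged pairs were called. The unchanged pairs were simulated with equal copies, so this says nothing of pairs near the 2-fold limit. CRISPant ratios were tested by a copy-by-group term. The levels printed are CPM on the same totals, not corrected for length. Totals ran from 36563581 to 46745977 counts per library, and the SD given, that between libraries, holds counting error and differences between pools.

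Pairs are named if they were the 8 most one-sided in a direction (10 or more counts of each copy, 500 or more on average), the 6 most abundant called in a direction, up to 6 with a copy at 0, up to 3 a direction in a gene list, the targeted genes, the 5 most abundant not called, or up to 4 a direction in a CRISPant test. Not all pairs so chosen are described, some are not reported here, and other pairs were chosen after their values were seen. The members and the lists, set by symbol, were chosen with earlier results of these data known. Alternatives were DESeq2 1.42.0, limma 3.58.1, glmTreat, other scalings, filters and thresholds, subsets of replicates and each library left out.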

Additional observations from a re-analysis of the deposited data

Results flagged for a closer look

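In 10 of 129 groups of shares tested, 1 library lay far from the others of its group, where chance alone gives about 1 in 20. CRISPant groups were tested only for a few picked pairs, among them those chosen after their split by replicate number was seen. The *ap3b2* group has a replicate 4 but no replicate 5, so a pair that splits by number leaves 1 library apart there. The number flagged can therefore not be set against the chance rate. The L share was 98.7% for *tbcd* in control 2, 34.4% for *mpz* in control 5, 9.21% for *glra1* in control 3, 29.7% for *ldha* in control 5, 7.93% for *tshb* in control 2 and 80% for *adcyap1* in control 3. In *ap3b2* CRISPant replicate 4 it was 38.8% for *gsto1*, 90.1% for *ccdc12*, 80.9% for *rplp0* and 18.1% for *rps19*, and these pairs also split by replicate number in the controls. The calls of the pairs with a control far from the others were kept without each control.

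The ratio of L to S differed between CRISPants and controls in the following described pairs, by the copy-by-group test with both CRISPants set against the same controls. Toward L, the log2 change was 1.27 for *ccdc50* in *ap3b2* CRISPants, 1.32 and 1.54 for *hmga2* in *ap3b2* and *eef1a2* CRISPants, 1.23 for *inpp5d* in *eef1a2* CRISPants, 1.08 for *col4a2* and 1.01 for *pou2f1* in *ap3b2* CRISPants, 1.05 and 1.02 for *map1a*, 1.22 for *cldn5* in *eef1a2* CRISPants, 2.23 and 2.43 for *gprin1*, and 2.45 and 1.83 for *prss23*. Toward S it was -1.01 for *kdm6b* in *ap3b2* CRISPants, -1.02 and -1.18 for *sf3a1*, -1.06 for *glra1* in *eef1a2* CRISPants, and -1.59 and -1.79 for *ttc39c*.

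Several of these changes rest on few reads of the S copy in the CRISPants, with 2 to 13 counts per library for *hmga2*, 4 to 11 for *inpp5d* in *eef1a2* CRISPants and 1 to 9 for *col4a2* in *ap3b2* CRISPants, besides 0 to 10 for *prss23*. Reads of the lesser copy were also few in 3 others. *cfi*, for complement factor I, changed by 3.05 in *ap3b2* CRISPants, with 14 counts of the S copy over the 5 controls. *mob3c* changed by -2.04 in *ap3b2* CRISPants, with 70 counts of the L copy, the lesser one, over the controls. *dhrs7b* changed by 3.52 in *eef1a2* CRISPants, with 6 counts of the S copy over the controls and 0 in every *eef1a2* library, so that the fitted change is no measure of its size.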

How the results depend on the processing

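The counts of calls toward L and S kept their size (within 1.5 times) under DESeq2, limma, glmTreat, both other scalings, all filters, FDR below 0.01, CRISPant libraries in place of controls and each control left out (2371 to 2404 and 1109 to 1116, with 3440 to 3459 of the 3508 calls kept). Calls without a replicate block numbered 2381 and 1118. Thresholds moved them: FDR alone gave 4915 and 2841, a fold above 4 gave 1044 and 458, and a fold above 1.5 gave 1741 toward S. The median log2 ratio was 0.28 with 500 or more counts per pair. It was 0.01 with L and S scaled apart, where 54.4% of the calls were toward L (68.2% otherwise). The separate scaling centres the ratios near 0 by its design, so these values are no test of the lean to L. The correction for coding length was not run, since lengths were not used here.

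Of 103 named pairs 101 kept their call under DESeq2 and without each control. Many of them were chosen for large ratios or high counts in these same controls. This number is therefore no measure of how stable calls are in general. *irf5* was not called with DESeq2 (log2 ratio 1.19, adjusted p 0.0768) or without control 1, 2 or 3 (0.87 to 1.17), and *gsto1* was called without control 4 or 5 (1.16 and 1.01). Leaving out controls moved calls toward L of aminoacyl-tRNA synthetases between 0 and 2 and of Hox genes between 2 and 4, and calls toward S of calcium channels and of glycine genes between 1 and 2.

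Changes of the ratio in CRISPants were less stable. FDR alone gave 1015 and 877 (*ap3b2*) and 1077 and 926 (*eef1a2*) toward L and S. With libraries left out the calls ranged from 63 to 282 and 53 to 272 for *ap3b2* and from 74 to 265 and 90 to 249 for *eef1a2*. Replicates 1 to 3 alone gave 315 and 289 for *ap3b2*, and 0 and 0 for *eef1a2* with edgeR, where 2824 pairs had an unadjusted p under 0.05, the smallest FDR was 0.0734 and DESeq2 called 218 and 218. A replicate block gave 109 and 117 for *ap3b2* and 161 and 191 for *eef1a2*. Same-numbered libraries correlated at -0.0427 to 0.225 in their deviations, above 0.1 in 7 of 9, and 4 of 9 CRISPant libraries correlated best with the control of their number. The numbers were not treated as pairs, although single pairs of copies split by number as described.

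Ratios are limited by 6605 of 8723 pairs having annotated spans and by unknown handling of shared reads. With 447 pairs holding under 10 counts of a copy in some control, their folds are imprecise.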
